A study of Mus musculus with 8 samples.

Results

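The genes described here are 10 genes of antioxidant defence and metal binding, chosen by name: the metallothioneins *Mt1* and *Mt2*, the glutathione peroxidases *Gpx1*, *Gpx3* and *Gpx4*, the superoxide dismutases *Sod1* and *Sod2*, catalase (*Cat*), *Txnip* and *Hmox1*. All 10 were found among the 19945 genes of the count table. They were followed across 12 annotated cell classes, in β-cell clusters 0, 1 and 10 as numbered in the deposited annotation, and between islets of vehicle- and FAKi-treated mice. FAKi is PF-562271, a small molecule that blocks focal adhesion kinase. Wild-type mice received FAKi at 50 mg/kg, or vehicle, 2 times daily over 3 weeks. Their islets were isolated 10 days after dosing ended. Islets of 5 mice were pooled for each condition. The 8 samples were read as 4 sequencing lanes of 1 library per condition. With 1 library per condition no test between conditions was possible, and every interval below is a 95% interval for counting error only.

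Superoxide dismutases turn superoxide into hydrogen peroxide, which catalase and glutathione peroxidases remove. Metallothioneins are small cysteine-rich proteins that bind zinc and copper, and their genes respond to metals, glucocorticoids and stress. β-cells store insulin with zinc and are known for low levels of catalase and glutathione peroxidase.

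*Mt2* and *Mt1* are neighbours on chromosome 8 of the mouse genome (GRCm38), at 94172664 to 94173568 and 94179082 to 94180327, both on the plus strand with 5513 bases between them. *Txnip* lies on the plus strand of chromosome 3, at 96557957 to 96561883. The promoters of *Mt1* and *Mt2* are shown because these genes differed together between the libraries, and that of *Txnip* because it differed in opposite directions between cell types. The RefSeq windows (GRCm38.p6, plus strand) cover 240 bases, from 250 to 11 bases before the RefSeq start, at chr8:94178839-94179078, chr8:94172368-94172607 and chr3:96557707-96557946. Capitals mark the metal response core (TGCACNC or TGCGCNC, either strand) in *Mt1* and *Mt2*, and a carbohydrate response pair (CACGNG, 5 bases, CACGNG, either strand) in *Txnip*.
Mt1: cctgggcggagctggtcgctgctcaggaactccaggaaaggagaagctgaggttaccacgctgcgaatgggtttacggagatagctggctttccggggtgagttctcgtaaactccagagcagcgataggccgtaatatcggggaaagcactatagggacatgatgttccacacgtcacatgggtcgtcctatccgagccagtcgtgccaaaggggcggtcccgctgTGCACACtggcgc
Mt2: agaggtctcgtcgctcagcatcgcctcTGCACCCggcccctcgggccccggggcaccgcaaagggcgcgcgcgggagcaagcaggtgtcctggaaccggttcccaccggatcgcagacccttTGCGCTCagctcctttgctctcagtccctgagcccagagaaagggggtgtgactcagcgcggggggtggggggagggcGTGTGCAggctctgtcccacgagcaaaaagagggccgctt
Txnip: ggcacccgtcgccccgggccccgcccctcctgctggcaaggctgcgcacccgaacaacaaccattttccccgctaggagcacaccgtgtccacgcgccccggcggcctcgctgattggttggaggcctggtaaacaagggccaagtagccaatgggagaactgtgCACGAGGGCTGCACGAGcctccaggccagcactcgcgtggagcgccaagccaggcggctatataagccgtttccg

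The *Mt2* window held 3 metal response cores, as many as or more than this being found in 1.18% of the 32851 promoter windows of this length. The *Mt1* window held 1 core, and 20.4% of all windows held at least 1. GENCODE lists further *Mt1* starts downstream of this window, and the bases between the window and those starts were not searched. The carbohydrate response pair stood in the *Txnip* window and in 0.0396% of all windows, and the *Txnip* window also held 1 metal response core. An antioxidant response core (TGACNNNGC, either strand) was present in the windows of *Mt2* and *Sod1* and in 9.67% of all windows. The windows of the other 6 genes with an entry held neither the metal response core nor the pair. *Hmox1* had no entry. These are matches of letters and not measured binding.

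The vehicle library held 3776 cells and the FAKi library 3183 cells, with a median of 30793 and 30428 UMIs in a β-cell. Levels are CPM, the UMIs of a gene scaled to the total UMIs of a class in a library, and are therefore shares of that total, not amounts per cell. Insulin transcripts took a median of 55.7% and 55.5% of the UMIs of a β-cell. Several labels did not hold throughout. The class annotated as δ-cells joined cluster 6, rich in *Sst* (213487 CPM with vehicle), with cluster 8, which held 6909 CPM of *Sst* and 278292 CPM of *Ppy*. The class annotated as α-cells joined cluster 5, with 86.3 CPM of *Sst* with vehicle, and cluster 9, with 58406.5 CPM. In β-cell cluster 10, 46 of 121 cells with vehicle and 42 of 115 with FAKi held over 1% of their UMIs from *Gcg*, *Sst*, or *Ppy* and *Pyy*. Of 28 T cells with FAKi, 12 held over 5% insulin UMIs, 4 of 6 T-cell markers had a UMI, and these markers summed to 108 CPM against 1560 CPM with vehicle. Acinar class 1 held a median of 11.1% and 22.2% insulin UMIs. B cells numbered 9 with FAKi and were not compared. A gene was called past 1.5-fold when the ratio of CPM with FAKi to CPM with vehicle was at least 1.5 or at most its inverse, with at least 100 UMIs over both libraries.

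**Figure D1:**
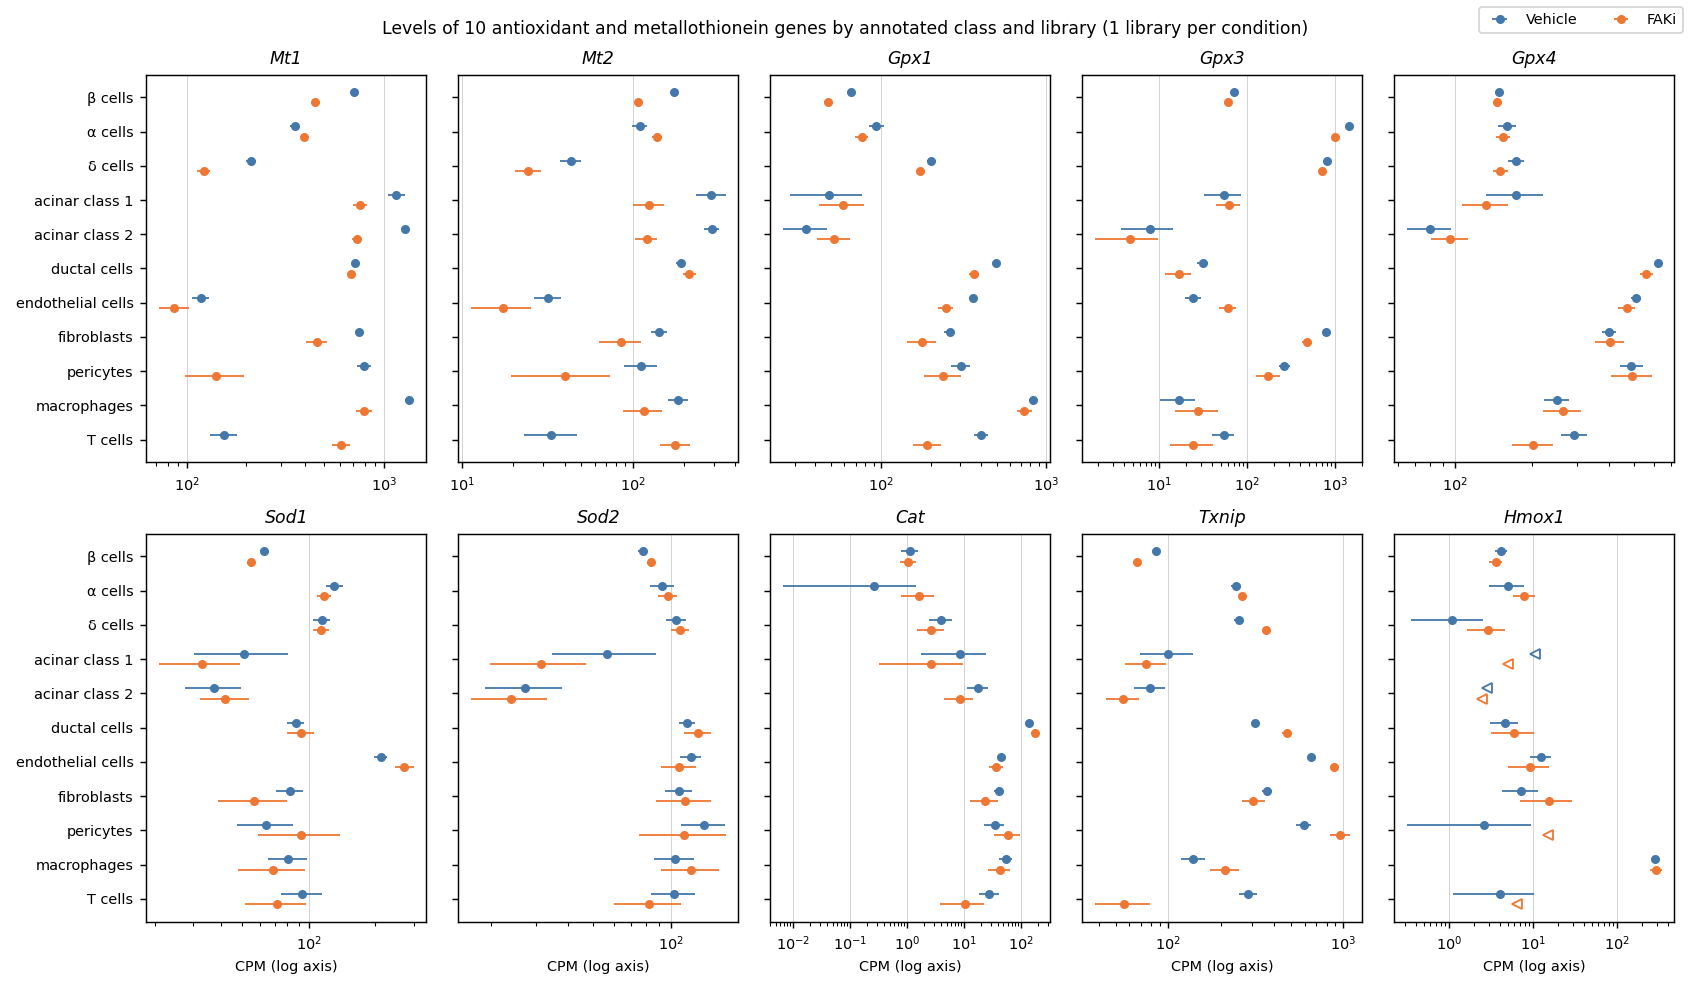
CPM (log axis) of the 10 genes in the annotated classes, in the vehicle and FAKi libraries, with exact Poisson 95% intervals and open triangles at the upper limit where no UMI was counted. *Gpx3* stood highest in α-cells, *Hmox1* in macrophages and *Cat* in ductal cells in both libraries, while *Sod2* varied little outside the acinar classes.

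*Mt1* was lower in β-cells of FAKi-treated mice. Its level was 705 CPM with vehicle and 448 CPM with FAKi, a ratio of 0.636 (0.623 to 0.649). *Mt2* stood at 174 CPM and 108 CPM, a ratio of 0.623 (0.599 to 0.648). These were the 2 of 9 compared genes past 1.5-fold in β-cells, both lower with FAKi, where 4.31% of all 11059 genes compared were past 1.5-fold in either direction. Of all genes, 2.26% had a lower ratio than *Mt1* and 1.94% a lower ratio than *Mt2*.

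The lower level was spread over the cells of β-cell clusters 0 and 1 rather than held by a few, while in cluster 10 the curves of the libraries crossed. In cluster 0 the cell at the 10th percentile held 92.9 CPM of *Mt1* with vehicle and 36.8 CPM with FAKi. The median cell held 623 and 358 CPM, and the cell at the 90th percentile 1641 and 996 CPM. The single cell with most *Mt1* held 0.716% of the β-cell UMIs of the gene with vehicle and 0.535% with FAKi. *Mt1* was detected in 95.1% and 91.2% of β-cells. When cells were thinned to 1000 UMIs, leaving out 13 and 16 shallower cells, these shares were 46.8% (43.7 to 49.8) and 34.1% (31.5 to 36.7), against 3.96% and 6.32% in endothelial cells.

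The β-cell clusters differed in the size of this difference. In cluster 0, *Mt1* was 723 CPM with vehicle and 430 CPM with FAKi, a ratio of 0.595 (0.581 to 0.610). In cluster 1 it was 718 and 476 CPM, a ratio of 0.663 (0.638 to 0.690). In cluster 10 it was 557 and 491 CPM, a ratio of 0.882 (0.824 to 0.943), whose interval lay apart from those of both other clusters. The *Mt2* ratios were 0.597, 0.621 and 0.852. The order of clusters 0 and 1 for *Mt1* turned with the mean of each cell's CPM, at 0.602 and 0.552. After thinning to 1000 UMIs it was kept but narrow, at 0.609 and 0.615. Cluster 10 stayed nearest to 1 or above it, at 0.996 for *Mt1* and 1.05 for *Mt2* among cells under 5% mitochondrial UMIs. Without the hormone-rich cells the *Mt1* ratio of cluster 10 was 0.864. Past 1.5-fold were 2 of 9 genes compared in cluster 0 (*Mt1* and *Mt2*, with 4.56% of all genes), 3 of 8 in cluster 1 (these and *Gpx1*, all lower, with 4.47% of all genes) and 0 of 8 in cluster 10 (4.35% of all genes). Without the 20 most abundant genes in the total, *Mt1* (0.694) and *Gpx1* (0.674) in cluster 1 were within 1.5-fold. Markers of red blood cells summed to 6441 CPM in cluster 1 with vehicle and 658 CPM with FAKi, and their part in the cluster 1 values was not tested.

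**Figure D2:**
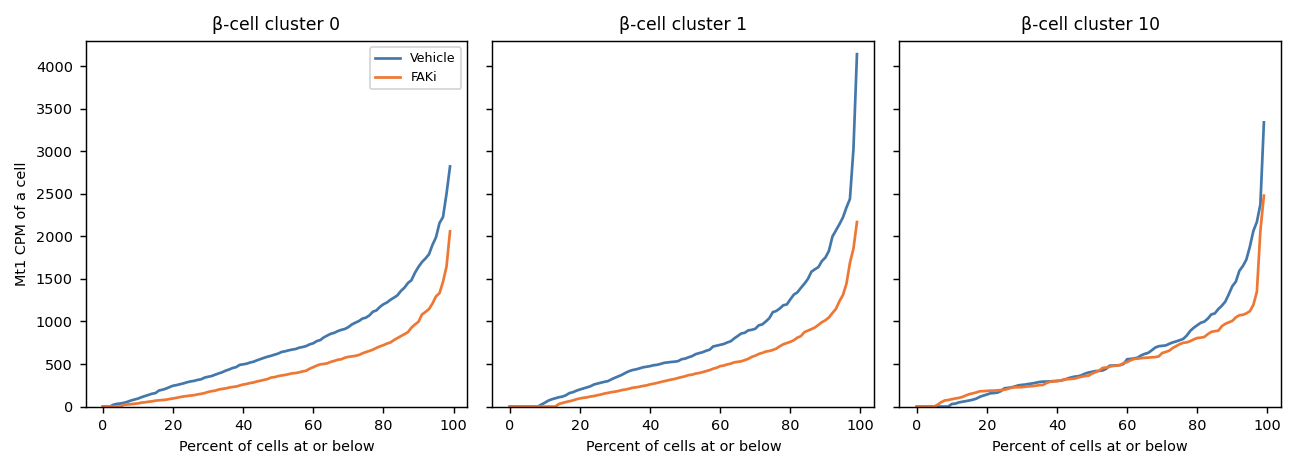
*Mt1* CPM of single β-cells (vertical axis) against the percent of cells at or below that value (horizontal axis), up to the 99th percentile, in clusters 0, 1 and 10 of the vehicle and FAKi libraries. The FAKi curve runs under the vehicle curve in clusters 0 and 1, with medians of 358 against 623 and 356 against 563 CPM, and the curves cross in cluster 10, with medians of 387 and 408 CPM.

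*Mt1* was lower with FAKi in 8 of the 11 classes compared, β-cells included, with an interval that excluded 1. The direction did not hold in 2 of the 8, endothelial cells (0.735, and 1.16 after thinning) and macrophages (0.589, and 1.28 with the mean of each cell's CPM). δ-cells held 212 CPM of *Mt1* with vehicle and 122 CPM with FAKi, a ratio of 0.575 (0.520 to 0.634). Both clusters of that class were lower, from 169 to 64.3 CPM in the *Sst*-rich cluster 6 and from 254 to 173 CPM in the *Ppy*-rich cluster 8. *Mt1* and *Mt2* were the 2 of 8 compared genes past 1.5-fold in δ-cells, with 3.88% of all genes, although with the mean of each cell's CPM the *Mt2* ratio was 0.768 and within it.

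The acinar classes held more *Mt1* than β-cells did. It stood at 1162 and 758 CPM in acinar class 1 and at 1281 and 736 CPM in acinar class 2. *Mt2* stood at 289 and 125 CPM in class 1 and at 290 and 121 CPM in class 2, and was likewise lower with FAKi in both. In class 1 these were 2 of 3 genes compared, with 20% of all genes past 1.5-fold, and in class 2 they were 2 of 6, with 11.7%. Among cells of class 1 with at least 1000 detected genes, 4 with vehicle and 13 with FAKi, the *Mt1* ratio was 0.919, and without the 20 most abundant genes it was 0.733.

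Pericytes, contractile cells around capillaries, differed most. *Mt1* was 797 CPM with vehicle (611 UMIs in 137 cells) and 141 CPM with FAKi (35 UMIs in 64 cells), a ratio of 0.177 (0.122 to 0.249). Fibroblasts went from 749 to 457 CPM. In pericytes 3 of 6 compared genes were past 1.5-fold (*Txnip* higher, *Mt1* and *Gpx3* lower), with 13.2% of all genes. The direction of *Gpx3* did not hold, since its ratio of 0.658 was 1.55 among the 39 and 32 cells under 5% mitochondrial UMIs. In fibroblasts 4 of 9 were (*Mt1*, *Mt2*, *Gpx3* and *Cat*, all lower), with 16.5% of all genes and a median log2 ratio of -0.11 over all genes. Without the 20 most abundant genes *Mt1* (0.671) and *Gpx3* (0.673) came within 1.5-fold, as did *Cat* after thinning (0.768). *Gpx3* also did without the hormone-rich fibroblasts (0.676), which were 13 of 264 with vehicle and 8 of 63 with FAKi.

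Ductal cells and α-cells did not show the lower level. Ductal *Mt1* was 717 CPM with vehicle and 684 CPM with FAKi, a ratio of 0.954 with an interval of 0.899 to 1.01. α-cells held 354 and 394 CPM of *Mt1*, a ratio of 1.11 (1.04 to 1.19), and 110 and 139 CPM of *Mt2*, a ratio of 1.26 (1.12 to 1.42). The α clusters were unequal in *Mt2*, with 124 and 142 CPM in cluster 5 and 64.5 and 131 CPM in cluster 9. Cluster 9 also held *Sst*, at 58406.5 CPM with vehicle and 45730 CPM with FAKi. The alternative without hormone-rich cells left out no α-cell, so it does not address this mixture. In α-cells 0 of 8 compared genes were past 1.5-fold, with 4.76% of all genes.

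In the immune classes single cells weighed more. Macrophage *Mt1* was 1352 CPM with vehicle and 797 CPM with FAKi, a ratio of 0.589, but the mean of each cell's own CPM gave a ratio of 1.28. A single cell held 29.6% of these UMIs with FAKi. Past 1.5-fold in macrophages were 3 of 8 compared genes (*Txnip* higher, *Mt1* and *Mt2* lower), with 17.0% of all genes. After thinning none of these 3 was, at 1.41, 0.812 and 0.830, and with the mean of each cell's CPM *Mt2* was at 1.48. In T cells *Mt1* was 154 and 611 CPM, a ratio of 3.96, which was 0.813 without the insulin-rich cells. There 4 of 7 compared genes were past 1.5-fold (*Mt1* and *Mt2* higher, *Gpx1* and *Txnip* lower), with 56.3% of all genes and a median log2 ratio of -0.53 over all genes.

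*Mt1* and *Mt2* kept a similar proportion in β-cells while both levels differed. There were 4.06 UMIs of *Mt1* per UMI of *Mt2* with vehicle (3.94 to 4.18) and 4.14 with FAKi, with overlapping intervals. In acinar class 2 the proportion was 4.41 (3.94 to 4.95) and 6.09 (5.20 to 7.17). Among cells of β-cell cluster 0 their CPM correlated with a Spearman's rho of 0.737 over 650 cells with vehicle and 0.733 over 675 cells with FAKi, whereas rho of *Mt1* with the other 8 genes lay between -0.10 and 0.23. Cells of 1 library are not replicates and differ in depth, so rho is a description. Over 27 groups, which are the 11 classes other than β-cells and the 3 β-cell clusters in each library, without the 9 B cells with FAKi, the gene most like *Mt1* was *Mt2* (Pearson's r of 0.947), and the next was *Nupr1* at 0.628. Gm45774, on the strand opposite *Mt2*, was counted at 1.11 and 1.28 CPM in β-cells.

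**Figure D3:**
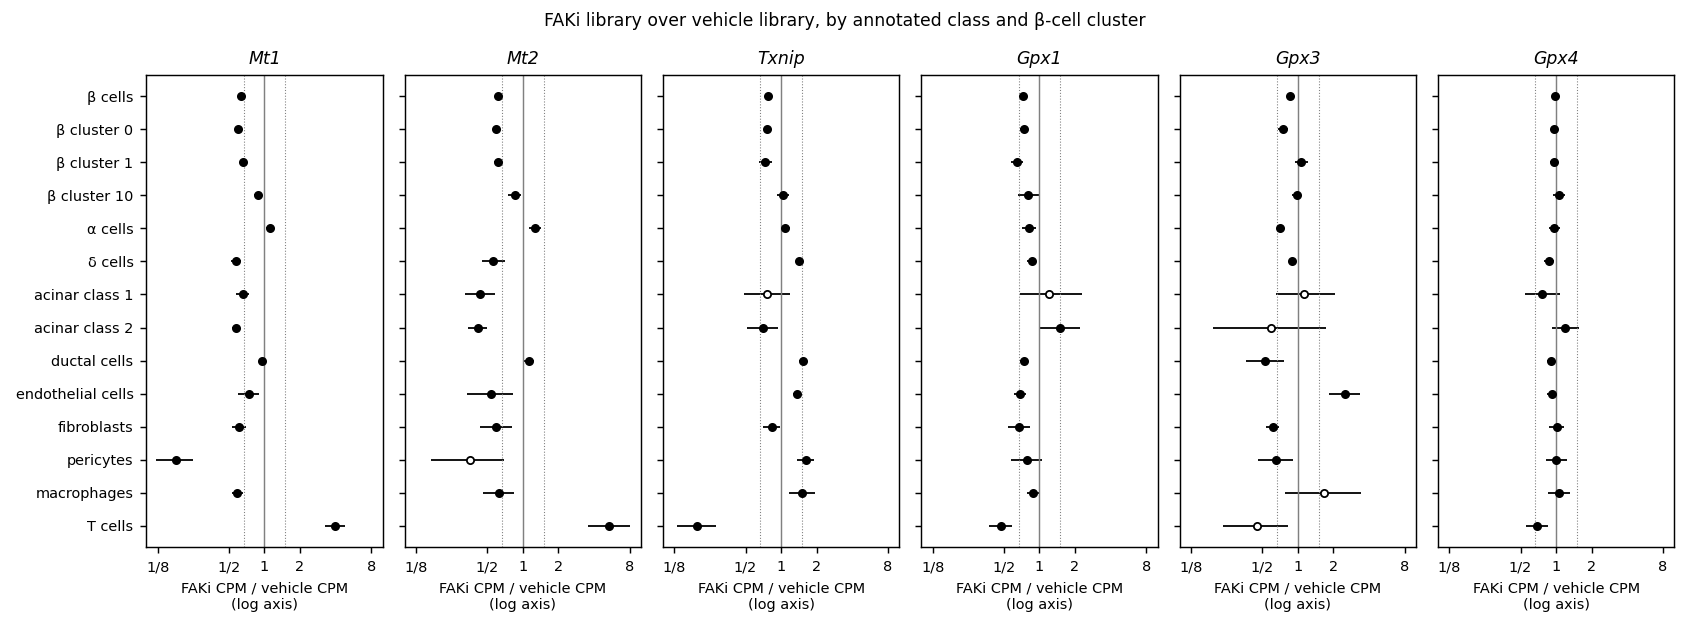
Ratio of CPM with FAKi to CPM with vehicle (log axis) for 6 of the genes in β-cells, their clusters and the other classes, with exact conditional 95% intervals. Open symbols rest on fewer than 100 UMIs and dotted lines mark 1.5-fold. *Mt1* and *Mt2* lie below 1 in most classes, *Txnip* at 0.775 in β-cells, 0.702 in acinar class 2 and 0.834 in fibroblasts and at 1.36 to 1.61 in δ-, ductal and endothelial cells, pericytes and macrophages, and *Gpx4* within the dotted lines in each class.

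*Gpx3*, which encodes the secreted plasma enzyme, set the endocrine classes apart. α-cells held 1416 CPM with vehicle and 995 CPM with FAKi, δ-cells 796 and 712 CPM, and β-cells 70.2 and 59.7 CPM. The order of α above δ above β was the same in both libraries, with intervals that lay apart. The α-cell ratio of 0.703 (0.677 to 0.730) fell short of 1.5-fold. Fibroblasts held 776 and 474 CPM, which overlapped the interval of δ-cells with vehicle.

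Within β-cells *Gpx3* was highest in cluster 10. It was 323 CPM there with vehicle and 316 CPM with FAKi, against 37.8 and 28.3 CPM in cluster 0. These are 8.53-fold (7.80 to 9.34) and 11.2-fold (10.1 to 12.3). *Gpx3* was detected in 82.6% and 86.1% of cluster 10 cells and in 34.8% and 38.7% of cluster 0 cells. Without the hormone-rich cells, which left 75 and 73 cells, the ratios were 6.77 and 9.08. *Gpx3* and *Txnip* were the 2 of 8 genes past 1.5-fold the same way in both libraries, with 6.80% of all genes. Between clusters 1 and 0 none of 9 genes were, with 0.993% of all genes. The clusters were drawn from expression of these cells, so these values describe the clusters and test nothing.

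**Figure D4:**
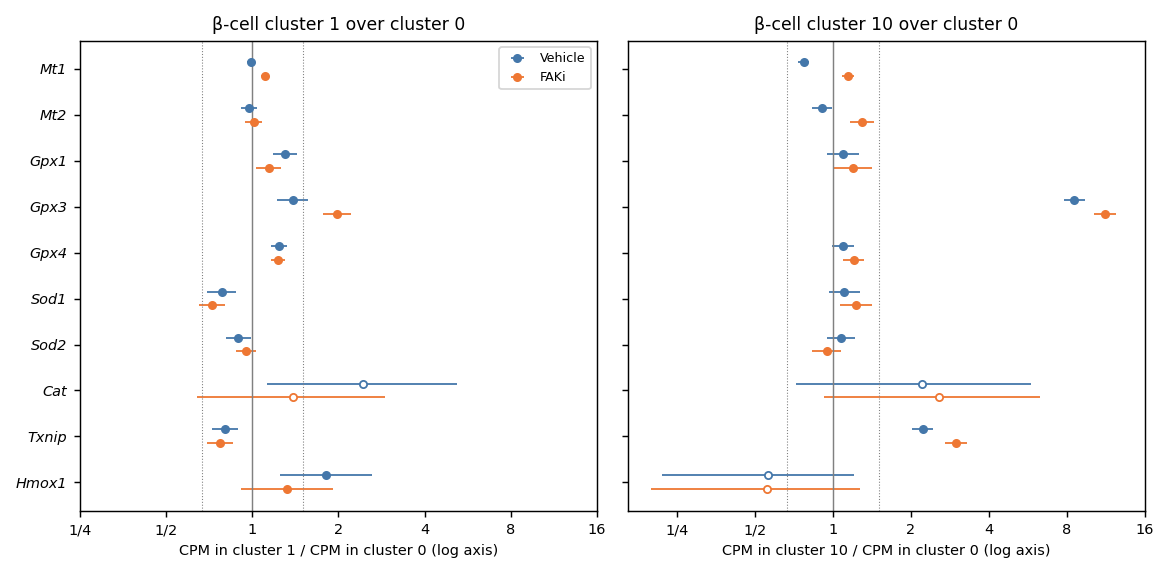
Ratio of CPM in β-cell clusters 1 and 10 to CPM in cluster 0 (log axis) in each library, with exact conditional 95% intervals. *Gpx3* and *Txnip* stand apart in cluster 10, at 8.53 and 2.22 with vehicle and 11.2 and 2.98 with FAKi.

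In endothelial cells *Gpx3* was 24.1 CPM with vehicle and 59.9 CPM with FAKi, a ratio of 2.49 (1.84 to 3.37). A single cell held 17.6% and 26.7% of these UMIs, and without called doublets the ratio was 1.44. *Gpx3* higher and *Mt2* lower, at 32.0 and 17.3 CPM, were the 2 of 9 compared genes past 1.5-fold in this class, with 9.18% of all genes. In ductal cells *Gpx3* was 31.2 and 16.6 CPM.

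*Gpx1*, the cytosolic enzyme, was highest in macrophages, at 833 CPM with vehicle and 738 CPM with FAKi. Ductal cells followed with 498 and 367 CPM, while β-cells held 65.7 and 47.6 CPM. The β-cell ratio was 0.723 (0.679 to 0.770), and it was past 1.5-fold with the mean of each cell's CPM (0.646) and after thinning (0.648). In 8 of the 10 classes compared the ratio was below 1 with an interval that excluded 1, although after thinning to 1000 UMIs it was 1.15 in δ-cells and 2.06 in T cells. In acinar class 2 it was 1.48 (1.01 to 2.19), and after thinning, with the gene in 4 of 86 and 3 of 114 cells, it was 0.566. In β-cell cluster 1 it was 0.645 (0.573 to 0.726), and 0.787 among cells with at least 1000 detected genes.

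*Gpx4*, which reduces lipid peroxides in membranes, differed little between libraries. β-cells held 149 CPM with vehicle and 146 CPM with FAKi, a ratio of 0.981 (0.944 to 1.02). It was highest in ductal cells, at 622 and 559 CPM. In none of 11 classes was it past 1.5-fold, and in 7 of them the interval held 1. After thinning to 1000 UMIs its ratio was 1.87 in macrophages and 0.391 in T cells.

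*Sod1*, the cytosolic copper and zinc enzyme, was highest in endothelial cells, at 212 CPM with vehicle and 271 CPM with FAKi. β-cells held 62.5 and 54.7 CPM, a ratio of 0.876 (0.824 to 0.931) that was 0.619 after thinning, and α-cells 130 and 117 CPM. *Scaf4*, on the opposite strand, was counted at 10.5 and 11.5 CPM in β-cells. *Sod2*, the mitochondrial manganese enzyme, was the most even gene outside the acinar classes. In the vehicle library it ranged from 77.7 CPM in β-cells to 134 CPM in pericytes, with 56.7 and 27.2 CPM in the acinar classes. Its β-cell ratio was 1.08 (1.03 to 1.14).

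*Cat*, the peroxisomal enzyme that splits hydrogen peroxide, was scarcely detected in endocrine cells. β-cells held 38 UMIs with vehicle and 41 with FAKi, or 1.14 and 1.07 CPM, in 3.16% and 2.92% of cells. Ductal cells held 142 and 181 CPM, in 64.1% and 73.7% of cells, a ratio of 1.27 (1.13 to 1.44). In fibroblasts *Cat* was 41.3 and 24.0 CPM, past 1.5-fold on 118 UMIs with an interval of the ratio of 0.306 to 1.02.

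*Txnip* encodes a protein that binds thioredoxin and is known to be induced by glucose. In β-cells it was lower with FAKi, at 85.2 CPM with vehicle and 66.1 CPM with FAKi, a ratio of 0.775 (0.735 to 0.818), which was 0.909 after thinning. In δ-cells it was higher, at 253 and 360 CPM, a ratio of 1.42 (1.32 to 1.53). Both δ clusters shared this, with 341 and 503 CPM in cluster 6 and 167 and 233 CPM in cluster 8. Of 10 classes compared, *Txnip* was lower in 4 and higher in 6 with intervals that excluded 1. Beside β-cells the lower ones were acinar class 2 at 78.4 and 55.1 CPM (0.702), fibroblasts at 367 and 306 CPM (0.834) and T cells at 286 and 55.8 CPM (0.195). The T-cell ratio was 0.621 without the insulin-rich cells, 0.452 with the mean of each cell's CPM and 0.370 after thinning.

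Vascular and ductal cells differed in the same direction as δ-cells. Endothelial cells held 654 and 888 CPM of *Txnip*, and pericytes 592 and 955 CPM. Ductal cells held 311 and 475 CPM, a ratio of 1.53 (1.42 to 1.65). *Txnip* higher and *Gpx3* lower were the 2 of 9 compared genes past 1.5-fold in ductal cells, with 8.16% of all genes. After thinning to 1000 UMIs both were within it, at 1.38 and 0.684, and *Txnip* was also within it in pericytes (1.41) and macrophages (1.41) and at 1.20 in endothelial cells, each still above 1. In β-cell cluster 10 *Txnip* was 174 and 179 CPM, in cluster 0 it was 78.7 and 60.1 CPM, and in cluster 1 it was 63.2 and 46.4 CPM. The ratio in cluster 1 was 0.734, and 0.764 after thinning. In cluster 0 it was 0.764, and 1.08 after thinning, and in cluster 10 it was 1.03, and 0.977 after thinning.

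*Hmox1*, which breaks down haem, was largely a macrophage transcript here. Macrophages held 282 CPM with vehicle and 289 CPM with FAKi, a ratio of 1.03 with an interval that held 1. A single cell held 18.9% and 53.1% of these UMIs, and without it the ratio was 0.603. β-cells held 4.15 and 3.60 CPM. In acinar class 1, where the median cell held 1480 and 1140 UMIs, no UMI was counted in 161 and 297 cells. The upper Poisson limits of 10.5 and 5.02 CPM lie below the macrophage level and above that of β-cells, so a level like that of β-cells was not detectable at this depth.

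Other genes of these pathways were mostly within 1.5-fold in β-cells, where 4.31% of all genes were past it. Of 11 compared genes of zinc handling and other metallothioneins none were past it, of 18 peroxiredoxin and thioredoxin genes 1 was lower (*Arrdc4*, 0.646), and of 15 genes of glutathione use 1 was lower (*Gstp1*, 0.663). Of 19 regulators and targets of NRF2, 2 were lower, *Maff* at 0.388 and *Mafk* at 0.634. None of 12 peroxisome genes were past it. Of 10 glucocorticoid-responsive genes 2 were lower, *Nfkbia* at 0.493 and *Per1* at 0.556, with a median log2 ratio of -0.35 against -0.05 over all genes. Of 17 immediate early genes 3 were lower, *Zfp36* at 0.520, *Fosb* at 0.624 and *Fos* at 0.634, with a median of -0.36. Of 10 glucose-responsive genes, a list that includes *Txnip*, 3 were lower: *Pklr*, *Arrdc4* and *G6pc2* at 0.607, 0.646 and 0.664.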

How the data were processed

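Islet cells of vehicle- and FAKi-treated mice were captured with 10x Genomics 3′ chemistry. Per the labels and methods, the authors used Cell Ranger and Seurat 3.1 with the mm10 build, kept cells under 8% mitochondrial RNA, and annotated classes and clusters. They deposited raw UMI counts per gene and cell, with the annotation and a percent of mitochondrial UMIs for each cell (deposited percent values, highest 8.00). The sources state 8832 and 8437 cells for sequencing, while the table held 3776 and 3183 barcodes, of which 4 occurred in both libraries. The total was 59514118 UMIs with vehicle and 57836783 with FAKi. No per-sample column was left unused (0). The lanes of a library are not replicates.

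From the deposited counts, UMIs were summed per class and library and scaled to the class total (CPM). Intervals are exact Poisson for levels, Clopper-Pearson for shares of cells and exact conditional binomial for ratios, all at 95%. They cover counting error only, and no p-value was computed. Calls used 1.5-fold and 100 UMIs, and comparisons between clusters required the same direction in both libraries. All 10 genes were described in each class. From each further list the 3 genes with the largest ratios past 1.5-fold were named, and likeness was Pearson's r of log2(CPM + 1) over groups of at least 20 cells among genes with at least 500 UMIs. The genes and lists were chosen with earlier results of these data known. Alternatives changed the scaling, the cells, the depth, the fold and the UMI minimum. Doublets were called with scrublet in each library (68 and 57 cells) and kept in the main values. On simulated counts with 200 genes changed 4-fold, the β-cell intervals covered the true ratio of 94.5% of changed genes (9878 genes). Promoters came from RefSeq and coordinates from GENCODE. Tables were handled with pandas 2.3.3, intervals computed with scipy 1.17.1, doublets called through scanpy 1.11.5 and plots drawn with matplotlib 3.10.9, under Python 3.11.15 with numpy 2.4.6.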

Additional observations from a re-analysis of the deposited data

Results flagged for a closer look

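Several genes had a ratio of CPM with FAKi to CPM with vehicle on the opposite side of 1 in a class from that in β-cells. The difference between the classes was not tested, since each condition is 1 library. *Mt1* was at 3.96 in T cells against 0.636 in β-cells, and *Mt2* was at 5.32 in T cells and 1.26 in α-cells against 0.623. The α-cell value joins 2 unequal clusters, with 124 and 142 CPM in cluster 5 and 64.5 and 131 CPM in cluster 9, which also held *Sst*. Of the 28 T cells with FAKi, 12 held over 5% insulin UMIs, and their part in these 2 values was measured by leaving them out, which gave 0.813 for *Mt1* and 1.31 for *Mt2*. *Mt1* in α-cells, at 1.11, was also above 1 but under the minimum set for listing here. *Gpx1* was at 1.48 in acinar class 2 against 0.723 in β-cells, and at 0.566 in acinar class 2 after thinning to 1000 UMIs, so its direction there did not hold. *Txnip* was at 1.42 in δ-cells, 1.53 in ductal cells, 1.36 in endothelial cells, 1.61 in pericytes and 1.51 in macrophages against 0.775 in β-cells. After thinning these were 1.53, 1.38, 1.20, 1.41 and 1.41 against 0.909.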

How the results depend on the processing

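Of the 333 alternatives to the 37 single-gene ratios past 1.5-fold, 326 kept the direction and 293 also stayed past 1.5-fold. Of the 33 that came within it, 9 were after thinning and 7 without the 20 most abundant genes. In β-cells the count of genes past 1.5-fold with FAKi was 2 of 9 compared (4.31% of all genes). It was 3 of 9 with the mean of each cell's CPM (6.57% of all genes) and 4 of 8 after thinning to 1000 UMIs (5.84% of all genes). At 2-fold it was 0 of 9 (0.986% of all genes). Between clusters 10 and 0 the count was 2 of 8 compared (6.80% of all genes). It was 0 after thinning, where 1 gene could be compared (8.03% of all genes), and 4 of 10 with a minimum of 20 UMIs (10.7% of all genes). The *Mt1* ratio in β-cells ranged from 0.608 to 0.658. Log2 ratios past 1.5-fold that turned were, with the mean of each cell's CPM, *Mt1* (0.36) and *Mt2* (0.56) in macrophages and *Gpx1* in T cells (0.70), after thinning *Gpx1* in T cells (1.04), under 5% mitochondrial UMIs *Gpx3* in pericytes (0.64), and without hormone-rich cells, an alternative chosen after seeing the data, *Mt1* (-0.30) and *Gpx1* (1.05) in T cells. Ratios within 1.5-fold whose interval excluded 1 turned under 16 further alternatives, 9 of them thinning. With FAKi these included, after thinning, *Gpx1* in acinar class 2 (from 1.48 to 0.566) and δ-cells (0.858 to 1.15), *Mt1* in endothelial cells (0.735 to 1.16), *Gpx3* in δ-cells (0.895 to 1.13) and *Txnip* in β-cell cluster 0 (0.764 to 1.08). The cause was not tested. No paired analysis was possible because each condition is 1 library and the numbers in the labels are lanes. The depth limits *Cat* and *Hmox1* in most classes.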
